A study of Mus musculus with 2 samples.

Results

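The heptad is a set of 7 transcription factors, Runx1, Tal1, Lmo2, Lyl1, Gata2, Fli1 and Erg, that bind together at many regulatory elements of blood stem and progenitor cells. All 7 genes were listed by symbol among the 24543 genes of the count tables, and their transcripts were followed across cells grouped by other, named marker genes. The cells were CD31+CD44+ cells sorted from the caudal portion of mouse embryos at embryonic day 10. CD31 is an endothelial surface protein and CD44 a surface receptor found on arterial endothelial and blood cells. Embryos of 2 genotypes were compared. Those termed cKO carried Nupr1 fl/fl and VEC-Cre, a Cre recombinase transgene driven by the Cdh5 promoter, so that Nupr1 was to be deleted in endothelial cells and in cells that descend from them. Littermates served as control. They are labelled WT, and the study's text gives Nupr1 fl/fl and Nupr1 fl/+ as the genotypes of such littermates. The mice were kept on a C57BL/6 background. Cells of both genotypes were tagged by hashtag oligos and pooled into 1 10x library per replicate, with 2 replicates.

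In the embryo, the first blood stem cells arise from arterial endothelium by the endothelial-to-hematopoietic transition (EHT), in which hemogenic endothelial cells round up and turn on blood genes. Within the heptad, Fli1 and Erg are ETS factors that are also active in endothelium, Tal1 and Lyl1 are related basic helix-loop-helix factors, Lmo2 is an adaptor that bridges them to GATA factors such as Gata2, and Runx1 is required for the transition itself. Heptad factors are also used separately by other blood lineages, such as Tal1 and Fli1 in megakaryocytes and Gata2 in mast cells and basophils.

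The files held 2139 cells, 1057 cKO and 1082 control, with no cell barcode shared by the pools. Each genotype in each replicate is called a library here, and its cells of 1 group were summed, giving levels as UMIs per 1000000 UMIs of that sum (CPM). A UMI marks 1 captured transcript near its 3′ end. The 4 libraries held 14981582 to 46037450 UMIs. In cells that passed the EHT gate, Nupr1 stood at 1.96 and 2.77 CPM in the cKO libraries and at 35.3 and 26.0 CPM in the control libraries, in the direction of the labels. The share of cells with a Xist UMI and no UMI of a chromosome Y gene was 0.872% and 57.6% in the cKO and 92.8% and 98.7% in the control libraries, so the sexes of the embryos and the genotypes cannot be told apart in a comparison of the genotypes.

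Cells were grouped by gates on their markers, with CP10K standing for UMIs per 10000 UMIs of a cell. EHT cells had at least 1 UMI each of Gfi1, a repressor of endothelial genes and known target of Runx1, and Neurl3, a ubiquitin ligase. Arterial cells had the gap junction gene Gja5 at 2 CP10K or more, and plexus cells had Kitl and Esm1 each at 0.5 CP10K or more. Macrophages had C1qa at 2 CP10K or more, megakaryocytes Gp9 at 1 CP10K or more, and myeloid cells Mpo at 2 CP10K and Fcgr3 at 0.5 CP10K or more. The gates gave 235 EHT, 390 arterial, 29 plexus, 139 myeloid, 577 macrophage and 211 megakaryocyte cells. The 235 EHT cells include 46 that also passed the arterial gate, since EHT took precedence over arterial. Of the 487 cells that passed no gate, 84 held UMIs of Ptprc, Myb and Kit. They are described as Ptprc+Myb+Kit+ cells, since Cd34, the marker left to check them, was not highest there. The other 403 cells without a gate, and 71 cells that passed several gates in any other combination, were left out of the main comparisons of gated groups. The markers that took no part in a gate were highest in their own group for 6 of 6 macrophage, 5 of 5 megakaryocyte, 5 of 5 myeloid, 8 of 8 arterial, 3 of 3 plexus and 3 of 4 EHT genes. A list of 6 mesenchymal and muscle genes summed to 32.1 to 343 CPM in the EHT libraries, and leaving out the 26 EHT cells with such transcripts changed no call of a member.

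The 7 genes lie on 6 chromosomes of GRCm38, the assembly also called mm10. In the GENCODE M21 annotation, Runx1 is at chr16:92601466-92826149 on the minus strand and Erg at chr16:95359169-95586593 on the same strand. Lmo2 is at chr2:103957986-103981878, Tal1 at chr4:115056426-115071755, Gata2 at chr6:88193891-88207032 and Lyl1 at chr8:84701457-84704715, all on the plus strand, and Fli1 is at chr9:32422204-32542861 on the minus strand. Runx1 is transcribed from a distal and a proximal promoter, and the reads near the 3′ end do not tell these apart. The promoters of Runx1 and Tal1, the heptad genes that were higher in EHT than in arterial cells, are shown from the RefSeq windows of GRCm38.p6, which start 250 bases before the transcript start. Only bases outside GENCODE exons are printed, 5′ to 3′ on the gene's strand, and capitals mark a match to one of the motifs named after them.
Runx1 distal, chr16:92826150-92826324, minus strand: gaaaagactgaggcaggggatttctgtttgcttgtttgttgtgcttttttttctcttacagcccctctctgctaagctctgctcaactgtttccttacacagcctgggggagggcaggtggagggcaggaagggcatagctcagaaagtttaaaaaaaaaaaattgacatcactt
Runx1 proximal, chr16:92697330-92697579, minus strand: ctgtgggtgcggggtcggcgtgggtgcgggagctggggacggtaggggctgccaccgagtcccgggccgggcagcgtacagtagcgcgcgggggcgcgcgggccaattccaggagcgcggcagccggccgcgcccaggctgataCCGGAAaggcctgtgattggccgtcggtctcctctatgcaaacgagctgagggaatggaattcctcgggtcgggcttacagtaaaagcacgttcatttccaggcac
Tal1 first promoter, chr4:115056176-115056425, plus strand: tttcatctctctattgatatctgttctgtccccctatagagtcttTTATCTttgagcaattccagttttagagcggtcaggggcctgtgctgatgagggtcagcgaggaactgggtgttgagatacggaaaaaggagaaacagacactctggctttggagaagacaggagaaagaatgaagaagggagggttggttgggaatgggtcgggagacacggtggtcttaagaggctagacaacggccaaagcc

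The motifs searched, on both strands, were TGTGGT for RUNX factors, AGATAA for GATA factors, CCGGAA for ETS factors, and CAGCTG and CAGATG for basic helix-loop-helix factors. None of them overlapped another in these stretches. They are short, and 16.8%, 11.2%, 14.9%, 16.3% and 17.2% of all 32851 RefSeq promoter windows of 300 bases held them. The proximal Runx1 stretch held 1 ETS match and the Tal1 stretch 1 GATA match on the reverse strand. The 300-base window of distal Runx1 held 2 RUNX matches, both past the GENCODE start and therefore not printed. The unprinted end of the Tal1 window held 1 CAGATG match, and a second Tal1 window, not printed, held no match. Windows were at hand for 5 of the 7 genes, Runx1, Tal1, Lyl1, Gata2 and Erg. A match is a run of letters only, and no binding was measured.

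Runx1 set EHT cells apart from endothelium. In EHT cells it stood at 277 and 172 CPM in cKO replicates 1 and 2 and at 220 and 160 CPM in control replicates 1 and 2. In arterial cells the same libraries held 35.1, 6.51, 16.1 and 20.2 CPM, and the ranges of the groups did not overlap. The 29 plexus cells held 3 Runx1 UMIs among 1545980. Runx1 was not restricted to EHT cells, since it averaged 186 ± 40.9 CPM (SD, n = 4 libraries, as below unless stated) in Ptprc+Myb+Kit+ cells, 165 ± 33.3 in myeloid cells, 152 ± 26.0 in megakaryocytes (n = 3, since cKO replicate 1 had no such cell) and 121 ± 18.9 in macrophages. In the order of these means, each group overlapped its neighbour from EHT down to macrophages, whereas macrophages, arterial cells and plexus cells lay apart from one another.

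Tal1 and Lyl1 shared their peak. Tal1 stood at 142 and 145 CPM in megakaryocytes of cKO and control replicate 2, and at 218 CPM in a control replicate 1 sum of only 5 cells. In EHT cells Tal1 was at 86.8 and 47.5 CPM in the cKO and 66.6 and 46.3 CPM in the control libraries. The megakaryocyte values lay above all EHT values. From EHT cells downward the neighbours in order overlapped, through arterial (38.3 ± 6.26 CPM), Ptprc+Myb+Kit+ (37.3 ± 8.48), myeloid (33.6 ± 19.1) and plexus cells (17.8 ± 13.4) to macrophages (13.1 ± 3.28). Lyl1 averaged 231 ± 47.1 CPM in megakaryocytes (n = 3), apart from 136 ± 24.2 CPM in EHT cells. It was close to that level in arterial cells, at 128.9 ± 25.02 CPM, and lowest in plexus cells, at 23.5 and 44.7 CPM in the cKO and 29.2 and 0 CPM in the control libraries, the last from 2 cells. The plexus values lay below those of all macrophage sums.

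Lmo2 was present throughout and highest on average in the plexus gate. Its plexus levels were 550 and 358 CPM in the cKO and 572 and 285 CPM in the control libraries, from 17, 7, 3 and 2 cells. In EHT cells it stood at 220, 353, 265 and 291 CPM in the same order, and in arterial cells at 243, 328, 230 and 331 CPM. In EHT and in arterial cells alike, both replicate 1 values lay below both replicate 2 values. The break in the order fell between megakaryocytes, at 276 ± 72.7 CPM (n = 3), and myeloid cells, at 126 ± 36.3 CPM.

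Gata2 and Erg each had blood cell groups in which they were nearly absent. Gata2 stood at 81.1, 56.4, 62.9 and 46.3 CPM in EHT cells and at 60.8, 64.7, 57.2 and 53.4 CPM in arterial cells, in the order cKO 1, cKO 2, control 1, control 2. These ranges overlapped. Its mean was highest in myeloid cells, at 98.0, 64.3, 128 and 49.0 CPM, which overlapped EHT cells, and Ptprc+Myb+Kit+ cells held 56.3 ± 22.0 CPM. It fell into separate levels below these, at 20.6 ± 4.06 CPM in plexus cells, 11.1 ± 1.03 in megakaryocytes (n = 3) and 0.964 ± 0.298 in macrophages. Erg was highest in the endothelial gates, at 62.6, 65.8, 69.0 and 70.6 CPM in arterial cells and 78.6, 49.7, 64.2 and 58.6 CPM in plexus cells. EHT cells followed at 64.3, 53.9, 54.9 and 52.3 CPM and overlapped both. It averaged 33.5 ± 16.1 CPM in Ptprc+Myb+Kit+ cells and 13.9 ± 4.40 CPM in myeloid cells, and these ranges did not overlap.

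Erg was close to nothing in macrophages and megakaryocytes. All 577 macrophages together held 8 Erg UMIs among 33346253, and cKO and control replicate 2 megakaryocytes held 3 each, or 0.402 and 0.319 CPM. The 5 control replicate 1 megakaryocytes held 5 Erg UMIs, or 16.8 CPM, far above the other sums. Fli1, the other ETS member, was instead highest in megakaryocytes, at 188 and 186 CPM in replicate 2, and never fell below 43.7 CPM in any sum. Its arterial values, 120, 100, 104 and 109 CPM, all lay above its EHT values, 89.9, 78.3, 80.0 and 67.2 CPM.

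**Figure D1:**
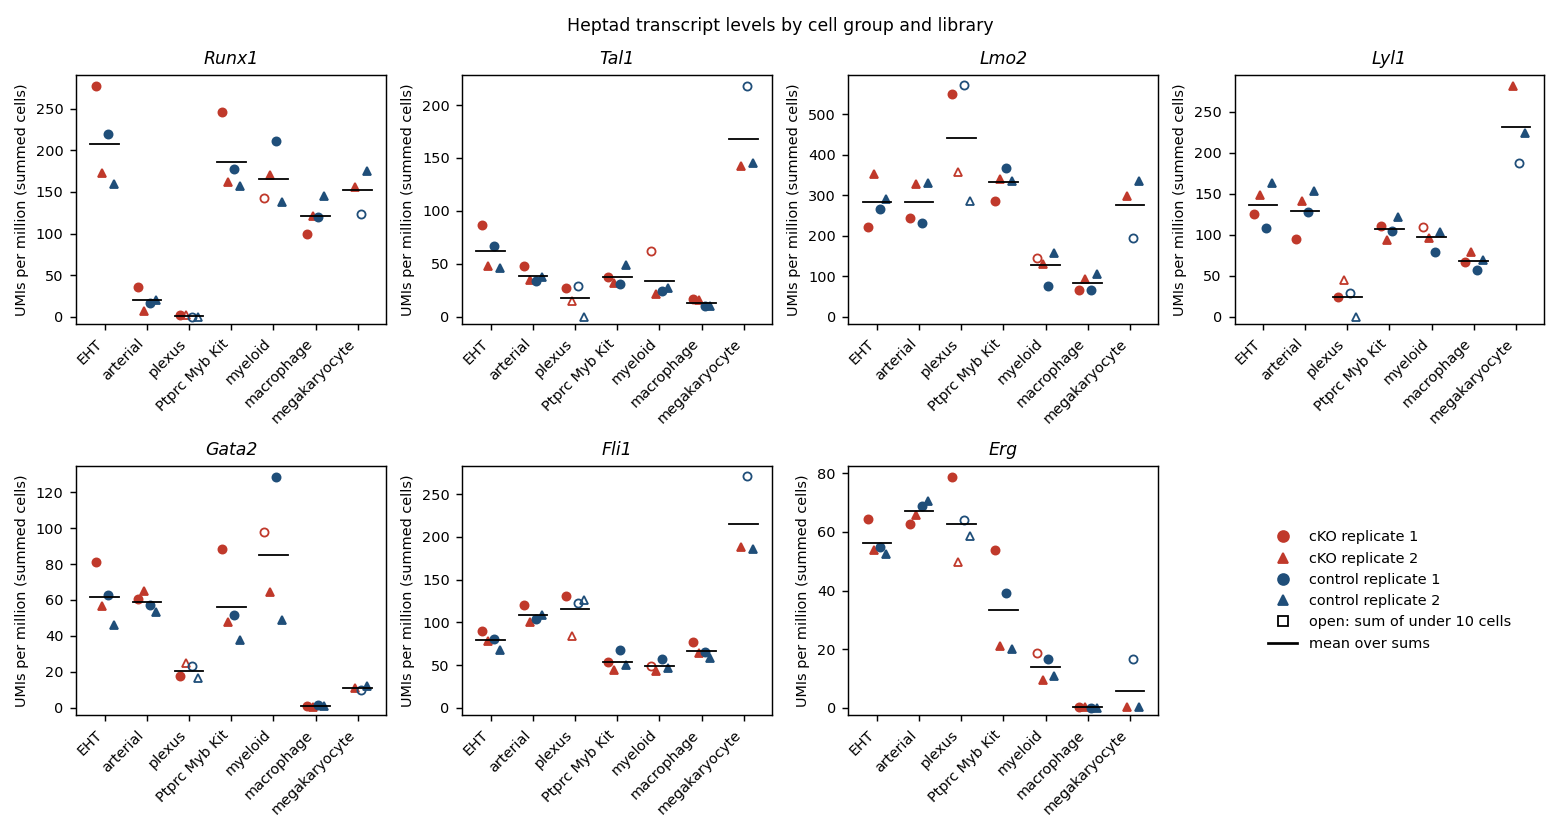
Level of each heptad gene (y axis, CPM of the summed cells, from 0, with its own scale per gene) in 7 cell groups (x axis). Each point is 1 library, red for cKO and blue for control, circles for replicate 1 and triangles for replicate 2, open where the sum held under 10 cells, and the line is the mean. Runx1 is low only in arterial and plexus cells, Erg is near 0 in macrophages, and Tal1, Lyl1 and Fli1 peak in megakaryocytes.

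Over the 22 sums of at least 10 cells, Gata2 and Erg were the pair of members whose log2(CPM + 1) levels ran most alike, with Pearson's r = 0.841, followed by Tal1 and Lyl1 with r = 0.713. Runx1 and Fli1 had the lowest value, r = -0.436. These sums share libraries and cell types, so r is a description of the order of the groups and has no p. Among 7656 other genes with a mean of at least 10 CPM, the genes most like Runx1 were Lgals9 (r = 0.955), Celf2 and Dtnbp1, and those most like Erg were Rbpms (r = 0.990), Mdk and Slco3a1. For Gata2 they were Spns2 (r = 0.959), Fam216a and Cd320, for Fli1 Slc25a24 (r = 0.953), Tpm4 and Parvb, for Tal1 Gypc (r = 0.941), Tom1l1 and Ctdspl, for Lmo2 Ptp4a3 (r = 0.936), Hmgb3 and Kcmf1, and for Lyl1 Bcl2l1 (r = 0.890), Rbm38 and Smim3.

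The first comparison set EHT against arterial cells, the endothelium from which they arise, within each of the 4 libraries. Runx1 was 12.1-fold higher in EHT cells, a log2 fold change of 3.59 ± 0.29 (SE; edgeR quasi-likelihood test with the library as a block, Benjamini-Hochberg adjusted p = 0.000357), and higher in 4 of 4 libraries. Tal1 was 1.69-fold higher, with a log2 fold change of 0.75 ± 0.12 (edgeR, adjusted p = 0.000158), also in 4 of 4 libraries. Fli1 was lower in EHT cells in 4 of 4 libraries, with a log2 fold change of -0.37 ± 0.09 (edgeR, adjusted p = 0.00309). That call was lost when every cell was thinned to 6000 UMIs (log2 fold change -0.10, edgeR adjusted p = 0.671). The other 4 members did not pass the test. Their log2 fold changes were 0.09 ± 0.08 for Lmo2, 0.17 ± 0.10 for Lyl1, 0.13 ± 0.11 for Gata2 and -0.17 ± 0.10 for Erg, with edgeR adjusted p from 0.158 to 0.355. Without control replicate 1, Lyl1 passed (0.31, edgeR adjusted p = 0.0266), and with cells assigned to the nearest centroid, Erg passed as lower (-0.40, edgeR adjusted p = 0.0190). Thus 3 of 7 members passed, whereas 58.6% of the 10860 genes tested did, and a count of members below that share is no result about the heptad. Of the members, 2 of 7 were higher and 1 lower, beside 29% and 29.6% of all genes, and 2 of 7, Runx1 and Fli1, did not overlap between the groups, beside 44.9%. The median log2 fold change was 0.13 over the members and 0.01 over all genes tested.

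Gfi1, part of the EHT gate, is a known Runx1 target, and the gate therefore selects on a gene linked to a member. EHT cells were also deeper, with a median of 54197 UMIs against 23647 in arterial cells, and an EHT cell needs a UMI of 2 genes to be found. Runx1 and Tal1 passed the test under each of the 14 alternatives run, including thinned cells, groups by nearest centroid and EHT cells without mesenchymal transcripts. Their log2 fold changes ranged from 2.78 to 3.85 and from 0.66 to 0.86 there.

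Lists of genes around the heptad were read in the same fit. Of 10 partners, proteins that bind heptad factors, 3 were higher in EHT cells, 3 lower and 4 not called. Ssbp2, a cofactor of LIM-domain complexes, rose 2.07-fold and Zfpm1, the GATA cofactor FOG1, 1.38-fold, whereas Tcf4, an E protein, was 2.40-fold and Ldb2 1.88-fold lower. Of 11 relatives, other members of the same factor families, 8 were tested, 5 higher and 2 lower. Lmo1, a close relative of Lmo2, was 18.6-fold higher, at 43.3 ± 19.0 against 2.30 ± 1.00 CPM, and Ets1, an endothelial ETS factor, 4.27-fold lower, at 28.7 ± 5.97 against 130 ± 12.8 CPM. Gata3 was 2.18-fold lower in EHT cells, while Gata2 was not called. All 10 genes of a list of targets, chosen as known to be bound or regulated by heptad factors, passed, 6 higher and 4 lower. These counts stand beside 29% of all genes higher and 29.6% lower. The lists were chosen with earlier results of these data known, so their counts are a description and no independent support. Among the higher were Myb (78.8-fold), Spi1 (60.1-fold) and Gfi1b (34.1-fold), blood regulators, and among the lower were the endothelial receptors Kdr (6.53-fold) and Tek (4.12-fold) and the cadherin gene Cdh5 (3.72-fold). Each of these edgeR adjusted p values was below 0.05, and the largest among the genes named here was 0.00192. Arterial cells held only 15 UMIs of Myb, 4 of Gfi1b, 23 of Lmo1 and 6 of Runx2, another relative called higher. These 4 genes passed the filter on low counts only through EHT cells, so their calls were bound to follow and add nothing to the counts.

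**Figure D2:**
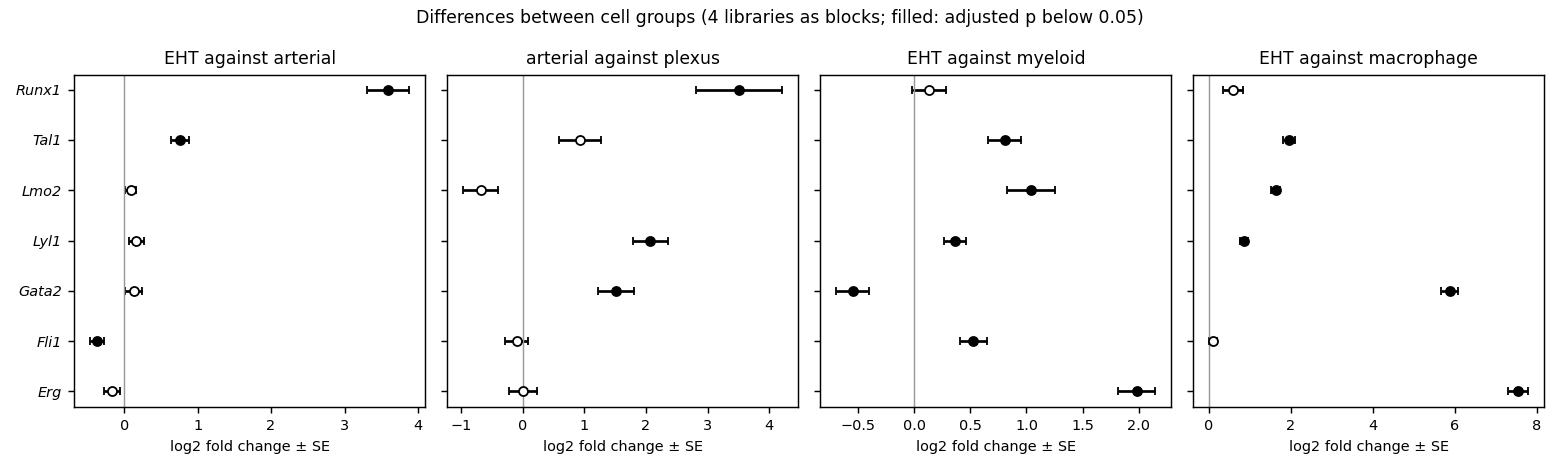
Log2 fold change of each heptad gene with its SE (x axis, a separate scale in each panel) in 4 comparisons of cell groups, each fitted with the 4 libraries as blocks. Filled points passed an adjusted p of 0.05. Runx1 stands far to the right in the panels of EHT against arterial and arterial against plexus cells, and Erg and Gata2 in that of EHT against macrophages.

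Arterial and plexus endothelium differed in other members. Lyl1 was 4.20-fold higher in arterial cells (log2 fold change 2.07 ± 0.28, edgeR adjusted p = 8.18e-06) and Gata2 2.86-fold higher (1.52 ± 0.29, edgeR adjusted p = 0.000200), each in 4 of 4 libraries. Runx1 also passed (3.51 ± 0.70, edgeR adjusted p = 0.000392). Because the plexus side had only 3 Runx1 UMIs, the ratio of pooled levels is the more readable value, 9.13 with an exact 95% counting interval of 3.07 to 44.7. Tal1 (0.93 ± 0.34, edgeR adjusted p = 0.0635) and Lmo2 (-0.69 ± 0.28, edgeR adjusted p = 0.206) were not called, and Erg (0.01 ± 0.22) and Fli1 (-0.10 ± 0.18) were within 1 SE of 0. With 3 of 7 members passing, against a background of 12.8% of 9268 genes, all 3 were higher in arterial cells, as were 7.03% of all genes, while 5.76% were lower. Runx1 passed the filter on low counts only through arterial cells, where it is high, so its call is no support for a difference in the members as a group. The values of 4 of 7, Runx1, Tal1, Lyl1 and Gata2, did not overlap, beside 16.8% of genes. The plexus gate rests on few cells, 17 of its 29 from cKO replicate 1. Without that library Runx1 no longer passed (2.88, edgeR adjusted p = 0.131). In the control sums alone Gata2 had a log2 fold change of 1.42 but did not pass (edgeR adjusted p = 0.240), and Runx1, with no UMI in the control plexus sums, did not pass either (edgeR adjusted p = 0.191). Lyl1 passed under each of 14 alternatives. After thinning to 6000 UMIs Gata2 did not pass (2.52, edgeR adjusted p = 0.0801), and Runx1 was too low to test, as it was without the library as a block. With nearest centroid groups Runx1 did not pass (2.70, edgeR adjusted p = 0.0784). Lmo2 passed as lower in arterial cells under 5 of 14 alternatives, among them no block (-0.72, edgeR adjusted p = 0.0408) and leaving out control replicate 2 (-0.93, edgeR adjusted p = 0.0345), and Tal1 as higher under 3 of 14.

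Among partners, Cbfa2t3, a corepressor known from Tal1 complexes, was 3.37-fold and Zfpm1 2.25-fold higher in arterial than in plexus cells, and Tcf4 was 2.81-fold lower, with 7 of 10 not called. Over all genes 7.03% were higher and 5.76% lower. Of 6 relatives tested, Gata3 (2.83-fold), Elf1 (2.76-fold) and Etv6 (1.76-fold) were higher and Ets2 (2.98-fold) and Ets1 (2.75-fold) lower in arterial cells. Of 6 targets tested, Tek (5.17-fold) and Cdh5 (1.91-fold) were higher and 4 were not called. The largest edgeR adjusted p among these genes was 0.0487, that of Etv6.

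Myeloid cells and macrophages each differed from EHT cells in several heptad members. Against myeloid cells, EHT cells had more Erg (log2 fold change 1.98 ± 0.17, edgeR adjusted p = 4.08e-08), Lmo2 (1.04 ± 0.22, edgeR adjusted p = 0.0122), Tal1 (0.80 ± 0.15, edgeR adjusted p = 0.000287), Fli1 (0.53 ± 0.12, edgeR adjusted p = 0.00148) and Lyl1 (0.36 ± 0.10, edgeR adjusted p = 0.00586). Gata2 was the only member lower in EHT cells (-0.55 ± 0.15, edgeR adjusted p = 0.00640), in 4 of 4 libraries. Runx1 was not called (0.13 ± 0.15, edgeR adjusted p = 0.512). That is 6 of 7 members, beside 50.4% of 10745 genes, with 5 higher (27.2% of genes) and 1 lower (23.2%). Lmo2, Fli1 and Erg did not overlap, 3 of 7 beside 37.3%. With cells assigned to the nearest centroid, a larger group of 231 myeloid cells, the Gata2 value was 0.0374 and was not called (edgeR adjusted p = 0.893). Without cKO replicate 2, Lyl1 was not called (0.26, edgeR adjusted p = 0.121). In the control sums alone and in thinned cells, Lyl1 and Fli1 were not called, and without the library as a block neither Lyl1 nor Gata2 was (edgeR adjusted p = 0.110 for both).

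The myeloid gate was not uniform in its heptad. This was looked at after the Gata2 values had been seen, by splitting its 139 cells on any UMI of Gata1, the GATA factor of the erythroid, megakaryocyte, mast cell and eosinophil lineages, and is a description without a test. The 57 cells with a Gata1 UMI held Gata2 at 141, 112, 237 and 108 CPM in cKO replicates 1 and 2 and control replicates 1 and 2, and the 82 cells without one at 14.7, 29.0, 47.2 and 14.2 CPM. These ranges did not overlap. Lmo2 ran the other way, at 78.7, 72.7, 29.5 and 77.0 CPM with and 272, 171, 108 and 205 CPM without a Gata1 UMI, again without overlap. In the same order, the sums held 5, 21, 11 and 20 cells with and 4, 29, 11 and 38 cells without one. How many of all genes the split keeps apart was not counted, so neither separation is shown to be particular to these members. Runx1 was higher with a Gata1 UMI within each library, at 201 against 129 CPM over all cells, while Fli1 was at 47.0 and 46.7 CPM. The median depths were 89038 and 86800 UMIs. Over all cells Cpa3, a mast cell and basophil protease gene, was at 172 CPM with and 40.6 CPM without a Gata1 UMI, and the neutrophil elastase gene Elane at 51.4 and 266 CPM. Prg2, which encodes eosinophil major basic protein, was at 2167 CPM in control replicate 1 with a Gata1 UMI and at or below 36.1 CPM in every other sum. The genes Cpa3, Elane and Prg2 were chosen after their values were seen.

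Against macrophages, 5 of 7 members were higher in EHT cells and none lower, beside 60.5% of 10802 genes called in either direction, 33.4% higher and 27.1% lower. The values of 6 of 7 did not overlap, all but Fli1, beside 47.3% of genes. Erg (log2 fold change 7.55 ± 0.25, edgeR adjusted p = 1.07e-11) and Gata2 (5.87 ± 0.20, edgeR adjusted p = 1.47e-11), with 8 and 27 UMIs in all macrophages, passed the filter on low counts only through EHT cells, so these 2 calls were bound to follow and add nothing to the count. The other 3 were Tal1 (1.95 ± 0.16, edgeR adjusted p = 1.81e-07), Lmo2 (1.63 ± 0.11, edgeR adjusted p = 1.59e-08) and Lyl1 (0.85 ± 0.09, edgeR adjusted p = 1.95e-06). Runx1 (0.59 ± 0.25, edgeR adjusted p = 0.109) and Fli1 (0.10 ± 0.09, edgeR adjusted p = 0.366) were not called. Macrophage Runx1 lay below the EHT values of all libraries, and the call was made without control replicate 2 (0.82, edgeR adjusted p = 0.00409) and in 3 other alternatives, DESeq2, no block and thinned cells.

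In the same comparisons, 7 of 10 partners were higher in EHT than in myeloid cells and 8 of 10 than in macrophages, with none lower in either. Among all genes 27.2% were higher and 23.2% lower against myeloid cells, and 33.4% higher and 27.1% lower against macrophages. Ldb2, the largest in both, stood at 48.8 ± 8.97 CPM in EHT cells, 0.364 ± 0.421 CPM in myeloid cells and 0.0867 ± 0.131 CPM in macrophages. After it came Tcf4 (2.72-fold) and Tcf12 (2.37-fold) against myeloid cells, and Zfpm1 (16.7-fold) and Cbfa2t3 (4.99-fold) against macrophages. Of the relatives, 5 of 10 tested were higher and 4 lower against myeloid cells. Gata1 averaged 37.2 ± 17.4 CPM in myeloid and 0.300 ± 0.253 CPM in EHT cells, Runx3 was 12.3-fold and Lmo4 9.12-fold lower in EHT cells, while Gata3 was 13.2-fold, Ets1 8.95-fold and Lmo1 8.55-fold higher. Against macrophages 5 of 9 relatives were higher, led by Gata3 (19.3 ± 1.92 against 0.0693 ± 0.139 CPM), Lmo1 (37.2-fold) and Runx2 (6.31-fold), and Runx3 (3.65-fold) and Ets2 (1.23-fold) were lower. Of the targets, 6 of 10 were higher and 3 lower against myeloid cells, and 9 higher and 1 lower against macrophages. Spi1, which encodes the myeloid factor PU.1, was lower in EHT cells in both, 1.53-fold and 2.05-fold, and Itga2b (1.99-fold) and Gfi1b (1.99-fold) were lower against myeloid cells. The endothelial Cdh5, Kdr and Tek led the higher targets against myeloid cells, and Kit, Cdh5 and Kdr against macrophages. Each named gene had an edgeR adjusted p of at most 0.0351. Against myeloid cells, which held 7 Ldb2, 15 Gata3 and 11 Kdr UMIs, EHT cells held 4 Gata1 and 14 Runx3 UMIs. Macrophages held 5 Ldb2, 4 Gata3, 27 Lmo1, 25 Runx2, 17 Kdr, 7 Kit, 23 Tek and 12 Gfi1b UMIs. Tek and Gfi1b, also among the 9 higher targets against macrophages, are named there for this reason only. In those comparisons these genes passed the filter on low counts only through the group where they are high. Their calls there were bound to follow and add nothing to the counts.

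The path from arterial to EHT cells was then divided into 4 steps by the gate genes alone, which gives a description and no test. The steps were 284 cells with the Gja5 gate only, 106 with that gate and UMIs of Gfi1 or Neurl3, 46 with that gate and both, and 189 with both and without the Gja5 gate. Runx1 rose over the steps from 7.35 ± 5.08 to 46.8 ± 26.5, 161 ± 48.1 and 219 ± 59.5 CPM. The first 2 increases were seen in 4 of 4 libraries and the last in 3 of 4. Tal1 averaged 37.2, 40.8, 60.0 and 62.4 CPM, and was higher in the last than in the first step in 4 of 4 libraries. Its second step, at 31.1 to 52.8 CPM, was higher than the first in 2 of 4 libraries. The steps are set by Gfi1, a Runx1 target, so the order of the genes over them cannot be told apart from that choice.

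Erg and Gata2 were highest in the middle steps. Erg stood at 62.3 ± 7.40, 77.5 ± 6.94, 80.5 ± 8.28 and 51.7 ± 6.74 CPM, and its last step lay below the third in 4 of 4 libraries, 44.4 to 60.5 against 69.6 to 88.9 CPM. Gata2 averaged 53.6, 71.3, 73.3 and 59.8 CPM, higher in the second than the first step and lower in the last than the third in 4 of 4 libraries each. Fli1 averaged 109, 106, 96.0 and 75.5 CPM, and its last step lay below its first in all libraries, without overlap. Lyl1 rose from 117 to 156 CPM between the first steps in 4 of 4 libraries and then stood at 140 and 136 CPM. Lmo2 averaged 293, 260, 236 and 289 CPM, and was lower in the second than in the first step in 4 of 4 libraries. The share of all genes with such changes over the steps was not counted. None of these courses is therefore shown to be particular to the heptad.

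Over the same steps Cdh5 went from 1114 to 1116, 729 and 201 CPM, and Ptprc, the gene of the pan-blood antigen CD45, from 0.260 to 0.946, 7.57 and 22.4 CPM. Median depth was 22867, 25346, 39019 and 57821 UMIs, so deeper cells fell into later steps, and the part of depth in these courses was not tested. When a step required at least 2 UMIs of Gfi1 and Neurl3, Runx1 stood at 13.2, 70.3, 172 and 221 CPM.

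**Figure D3:**
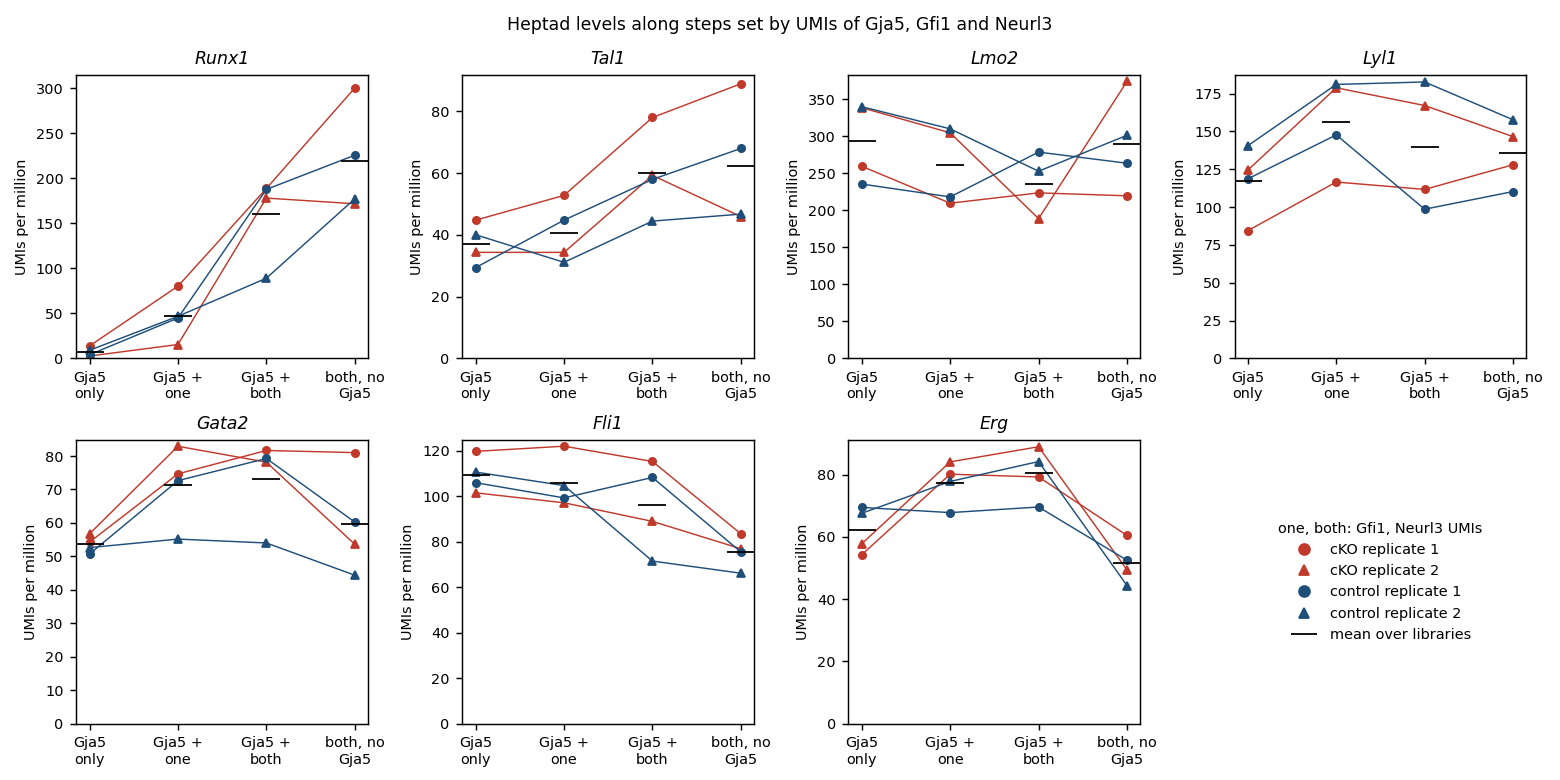
Level of each heptad gene (y axis, CPM, from 0) over 4 steps from cells with the Gja5 gate only to cells with Gfi1 and Neurl3 but without it (x axis). Each line is 1 library, coloured by genotype, with circles for replicate 1 and triangles for replicate 2, and bars mark the mean. Runx1 climbs from 7.35 to 219 CPM, whereas Erg and Gata2 are highest in the middle steps and Fli1 declines. In the third step cKO replicate 2 held 8 cells and control replicate 1 held 9.

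Detection of the heptad in single cells was compared after thinning each cell to 6000 UMIs, which left out 16 arterial cells, 4 macrophages and 1 Ptprc+Myb+Kit+ cell. A mean of 3.11 of the 7 genes was found per EHT cell, 3.37 per megakaryocyte, 2.60 per Ptprc+Myb+Kit+ cell, 2.53 per arterial cell, 2.27 per myeloid cell, 2.07 per plexus cell and 1.62 per macrophage. The library means of EHT cells, 2.92 to 3.27, lay above those of arterial cells, 2.39 to 2.61, and below those of megakaryocytes, 3.29 to 3.49 in 3 libraries. They overlapped those of Ptprc+Myb+Kit+ cells, 2.23 to 2.95. Runx1 was detected in 68.5% of EHT cells (exact 95% interval 62.2 to 74.4) and 7.49% of arterial cells (5.03 to 10.6). Lmo2, by contrast, was in 71.5% and 71.4% of them. Erg was in 24.7% of EHT cells (19.3 to 30.7) and 30.5% of arterial cells (25.9 to 35.4), and in 0 of 573 macrophages, which at this depth allows a share of cells with an Erg UMI of up to 0.524%. With all UMIs, Erg was in 7 of 577 macrophages, 1.21% (0.489 to 2.48), and in 85.5% of EHT cells. Gata2 was in 26.4% of EHT cells and 0.349% of macrophages (0.0423 to 1.26), from median depths of 54197 and 56259 UMIs before thinning. All intervals cover counting error only.

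With all UMIs, the 7 genes were found together in 160 of 235 EHT cells, 68.1% (61.7 to 74.0), with 59.2% to 76.4% in the libraries. The shares were 32.1% in Ptprc+Myb+Kit+ cells (22.4 to 43.2), 22.3% in myeloid cells (15.7 to 30.1), 5.90% in arterial cells (3.77 to 8.72) and 0.948% in megakaryocytes (0.115 to 3.38), whereas 0 of 577 macrophages had a UMI of all 7, which allows up to 0.520% of cells with such UMIs at this depth and does not bound expression. These shares moved with depth. At 12000 UMIs the shares were 5.60% (3.02 to 9.39) of EHT cells and 1.48% (0.483 to 3.43) of arterial cells. Ptprc+Myb+Kit+ cells held all 7 in 2.41% (0.293 to 8.43) at that depth, and the intervals of these 2 groups overlapped that of EHT cells. At 6000 UMIs the shares of EHT and arterial cells were 0.426% and 0.267%, 1 cell each, too few for an order. Median depths before thinning were 88887 UMIs in myeloid cells and 56259 in macrophages, against 54197 in EHT cells, and the intervals of their shares with all UMIs lay below that of EHT cells.

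**Figure D4:**
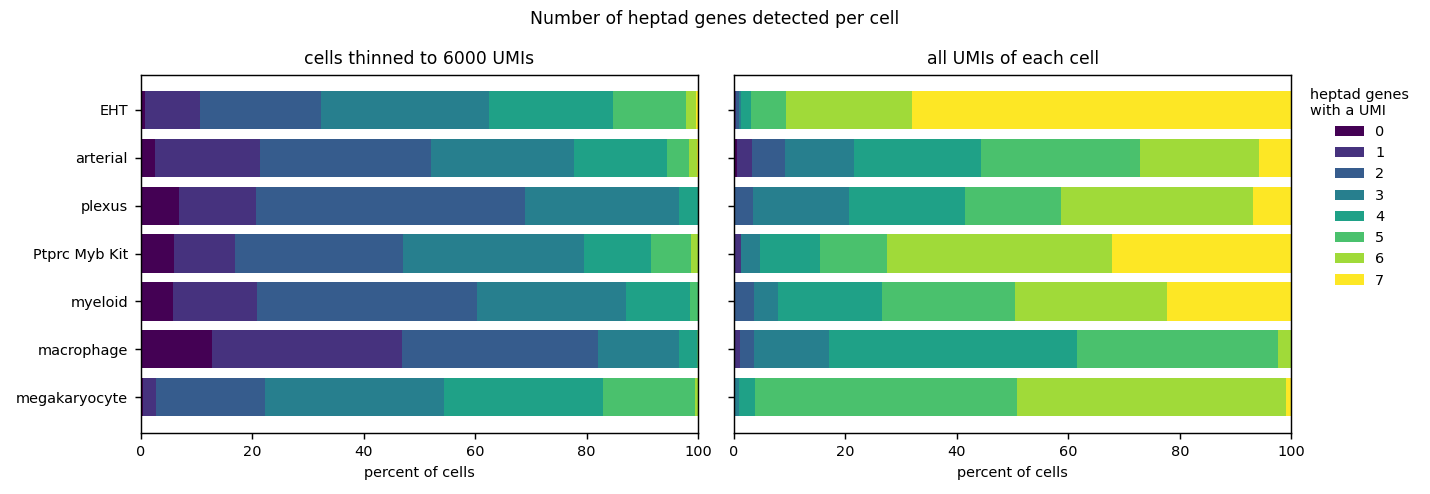
Percent of cells (x axis) by the number of heptad genes with at least 1 UMI (colour, from 0 to 7), for 7 cell groups, in cells thinned to 6000 UMIs (left) and with all UMIs (right). With all UMIs 68.1% of EHT cells hold all 7 genes and no macrophage does, and after thinning EHT cells hold a mean of 3.11 genes and macrophages 1.62.

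The last comparison asked whether loss of endothelial Nupr1 moved the heptad within a group. Of the 6 gated groups, the cKO and control sums of EHT, arterial and macrophage cells were compared, 2 against 2, since each of their sums had at least 10 cells. No member passed in EHT cells, where 1 of 10196 genes did, Nupr1 itself, or 0.00981% (log2 fold change -3.66 ± 0.43, edgeR adjusted p = 0.00307, and 0.0748 with nearest centroid groups). Runx1 stood at 277 and 172 CPM in cKO and 220 and 160 CPM in control EHT cells, a log2 fold change of 0.27 ± 0.27 (edgeR, adjusted p = 1.00). The others were Gata2 with 0.36 ± 0.29, Tal1 with 0.27 ± 0.31, Fli1 with 0.23 ± 0.26, Erg with 0.18 ± 0.27, Lmo2 with 0.09 ± 0.27 and Lyl1 with 0.05 ± 0.28. In the pairs sharing a replicate, Runx1, Tal1, Gata2, Fli1 and Erg were higher in cKO in both, and Lmo2 and Lyl1 in 1 of 2. The share of all genes higher in cKO in both pairs was not counted, so this direction is not shown to be particular to the members. The ranges of cKO and control overlapped for all 7, while those of 17.5% of all genes did not, and none had an unadjusted p under 0.05, beside 110 of all genes tested. Without cKO replicate 1, the values of Runx1 and Tal1 changed sign, to -0.0497 and -0.16. The median over the members was 0.23 and over all genes 0.01.

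In EHT cells the 2 replicates did not overlap for any member. How many of all genes differ so between the replicates was not counted, so this is not shown to be particular to the heptad. Both replicate 1 values of Runx1 in EHT cells, 277 and 220 CPM, lay above both replicate 2 values, 172 and 160 CPM, as did those of Tal1, Gata2, Fli1 and Erg, while Lmo2 and Lyl1 were higher in replicate 2. With the replicate as a block, still no member passed. A simulation of this EHT comparison with 200 altered genes recovered 29.2% of 2-fold and 90.7% of 4-fold changes, so most 2-fold changes would have been missed at this number of libraries.

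In arterial cells 0 of 7 members passed, as did 0 of 10013 genes, a background of 0% (110 had an unadjusted p under 0.05, none of them a member). Nupr1 itself was not called there, at a log2 fold change of -5.02 ± 1.08. A simulation of this comparison recovered 47.4% of 2-fold changes. DESeq2 called no member either. The log2 fold changes ran from -0.22 ± 0.25 for Lyl1 to 0.20 ± 0.22 for Gata2. Gata2 and Erg did not overlap between genotypes, with Gata2 at 60.8 and 64.7 CPM in cKO against 57.2 and 53.4 CPM in control cells, and Erg at 62.6 and 65.8 against 69.0 and 70.6 CPM. Such separation was found in 22% of all genes tested. Runx1 was the least certain, at 0.11 ± 0.66, since cKO replicate 1 held 35.1 and cKO replicate 2 6.51 CPM, and without the first the value was -1.44 (edgeR, adjusted p = 0.538).

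In macrophages 5 members could be tested and 0 passed, as did 0 of 10587 genes (40 at an unadjusted p under 0.05, none of them a member), a background of 0%. Nupr1 itself was not called here either (log2 fold change -4.32 ± 0.56, edgeR adjusted p = 0.719). A simulation of this comparison recovered 10.1% of 2-fold changes, so most of that size would have been missed. DESeq2 called no member. Gata2 and Erg were filtered out as too low. Tal1 was at 16.3 and 15.6 CPM in cKO and 10.1 and 10.5 CPM in control macrophages, a log2 fold change of 0.61 ± 0.30 (edgeR, adjusted p = 1.00) without overlap, as for 18.8% of genes. Runx1 had -0.27 ± 0.27. No test of whether the genotype effect differed between EHT, arterial and macrophage cells passed for a member (edgeR interaction terms, adjusted p = 1 for all). The count of all genes called rose under the replicate block to 28 in arterial cells and 10 in macrophages, none of them a heptad gene. The plexus, myeloid and megakaryocyte gates had too few cells in a sum for this test, the ungated Ptprc+Myb+Kit+ cells (16 to 31 per sum) were not tested, and their values by library are given above or in the plot of levels.

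**Figure D5:**
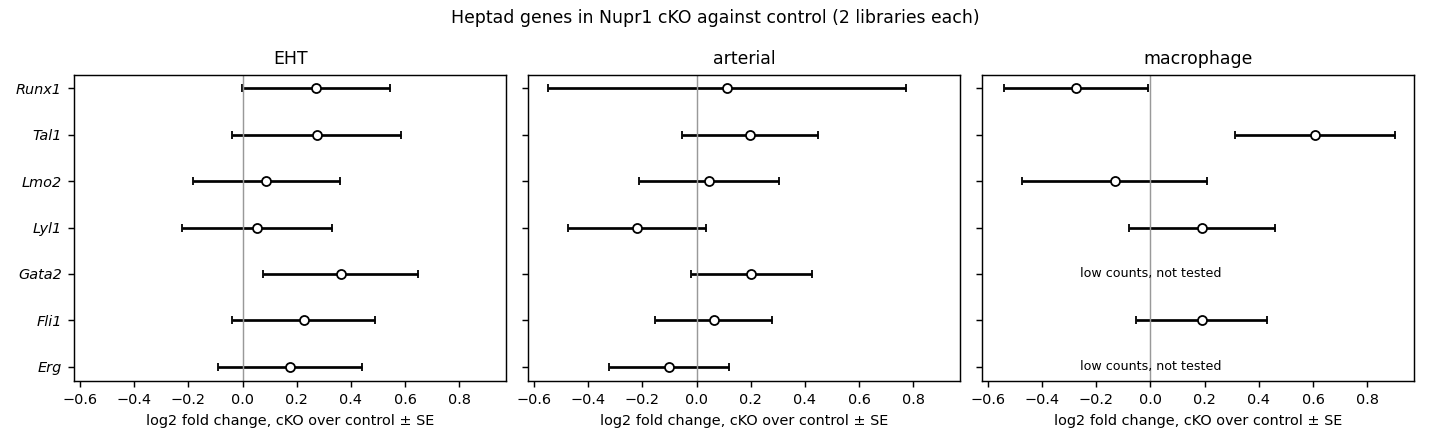
Log2 fold change of each heptad gene, cKO over control, with its SE (x axis) in EHT, arterial and macrophage cells, from 2 sums per genotype. Open points did not pass an adjusted p of 0.05, which holds for all members shown, and Gata2 and Erg in macrophages were too low to test.

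The mean number of heptad genes per EHT cell at 6000 UMIs was 3.06 in cKO and 3.14 in control cells, a difference of -0.0783 (two-sided exact permutation test, p = 0.667). In arterial cells it was 2.60 and 2.49 (p = 0.667, exact permutation test), and in macrophages 1.52 and 1.58 (p = 0.667, exact permutation test). With 2 values against 2 this test cannot give less than 0.333. The sign of the difference turned with depth in all 3 groups. At 12000 UMIs it was 0.255 in EHT cells, higher in cKO in both replicates (p = 0.333, exact permutation test), -0.163 in arterial cells and 0.0769 in macrophages. Too few cells held all 7 genes at 6000 UMIs to compare the genotypes. With all UMIs, 76.4% and 67.3% of EHT cells in the cKO and 66.1% and 59.2% in the control libraries held all 7 (p = 0.333, exact permutation test), while at 12000 UMIs the mean share was 5.08% in cKO and 6.29% in control cells. The partners, relatives and targets of the heptad had no call between genotypes in EHT cells (0 of 10, 0 of 8 and 0 of 10 tested), in arterial cells (0 of 10, 0 of 6 and 0 of 8) or in macrophages (0 of 9, 0 of 7 and 0 of 6).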

How the data were processed

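Single-cell RNA sequencing (10x, 3′ chemistry) was done on sorted CD31+CD44+ cells in 2 replicate pools. Reads were aligned and counted by the authors with Cell Ranger 5.0.1 on mm10 (the annotation is not given in the sources used here). The deposited tables hold whole UMI counts of each gene in each hashtag singlet, without normalization, and doublets were removed only as hashtag doublets. Of the 2139 cells, 101 lay outside the limits the study states (over 1800 genes, over 6000 UMIs, under 5% mitochondrial UMIs), and all were kept. The members, gene lists and gates were chosen with earlier results of these data known.

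Cells were grouped by the marker gates given above, and UMIs were summed per group, genotype and replicate. Groups were compared with edgeR 4.0.16 in R 4.3.3 (filterByExpr, TMM, robust quasi-likelihood test, Benjamini-Hochberg adjustment over all genes tested, threshold 0.05), with the library as a block between groups and without a block between genotypes. Both genotypes share each pool, so replicate numbers pair the sums. Deviations of same-numbered sums from their group means correlated with r = 0.460 in EHT cells, 0.570 in arterial cells and 0.674 in macrophages. The number of embryos in a pool is not stated, and p-values measure the spread between these pools. The procedure was tested on simulated sums with 200 altered genes per comparison. Shares have exact binomial 95% intervals. Alike genes were ranked on log2(CPM + 1). Levels were compared within a gene only.

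Named were all 7 members, genes of the partner, relative and target lists among the 3 with the largest called change in each direction, and the 3 genes most like each member. Genes named outside this rule are said to be so. Alternatives were the block added or removed, DESeq2 1.42.0, RLE scaling, all genes without the filter on low counts, control sums only, leaving out each library, the stated cell limits, doubled gate thresholds, thinning to 6000 or 12000 UMIs, at least 2 UMIs per step, and nearest centroids over 2000 variable genes. Letting the plexus gate take precedence, and leaving out EHT cells with mesenchymal genes at 2 CP10K or more, were added after seeing the data.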

Additional observations from a re-analysis of the deposited data

Results flagged for a closer look

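Tal1 in myeloid cells of cKO replicate 1 stood at 62.05 CPM, a level based on 9 cells and far from the other 3 libraries, which held 21.1 to 26.8 CPM. It was the only value that stood apart from its group in this way (Dixon's test) among 42 groups of 4 libraries tested, of which chance marks about 1 in 20.

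The 403 cells that passed neither a gate nor the further criterion entered no comparison of gated groups, yet held heptad transcripts. Their mean levels over the 4 libraries were 84.48 CPM for Runx1, 25.63 for Tal1, 288.9 for Lmo2, 71.58 for Lyl1, 20.45 for Gata2, 72.57 for Fli1 and 32.89 for Erg. They were marked because the comparisons of gated groups did not use them. The alternative by nearest centroid did use these cells, and assigned 134 of them to plexus. The libraries held 91 and 128 such cells in cKO and 59 and 125 in control.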

How the results depend on the processing

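Of 390 repeats of the members' comparisons between cell groups, 349 kept direction and side of the threshold, 13 lost a call, 14 gained one and 14 changed sign. Of 197 repeats between genotypes, 178 kept both and 19 changed sign, and no member was called in any. The causes of the changes below were not tested. Arterial against plexus rests on 29 plexus cells, the genotype comparisons on 2 sums a side, and sums of few cells limit the myeloid and megakaryocyte levels.

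Between genotypes, the replicate block left the members called at 0 in each group and moved the genes called to 28 in arterial cells and 10 in macrophages, with 1 in EHT cells as without it. Without the filter on low counts the genes called were 36 in EHT cells, 6 in arterial cells and 2 in macrophages, and with nearest centroids 0 in EHT cells. Leaving out a library gave 10 to 80 genes called in EHT cells, 2 to 14 in arterial cells and 4 to 30 in macrophages, where the lone sum of a genotype is assumed to vary like the others. By the library left out, the log2 fold change ranged from -0.0497 to 0.54 for Runx1, -0.16 to 0.61 for Tal1, -0.34 to 0.43 for Lmo2 and -0.21 to 0.38 for Lyl1 in EHT cells. In arterial cells it was -1.44 to 0.95 for Runx1, -0.0235 to 0.41 for Tal1, -0.21 to 0.34 for Lmo2, -0.57 to 0.0419 for Lyl1 and -0.0576 to 0.17 for Fli1, and in macrophages -0.46 to 0.37 for Lmo2 and -0.0098 to 0.42 for Lyl1. With nearest centroids it was -0.13 for Lmo2 and -0.0735 for Lyl1 in EHT cells and -0.0078 for Lmo2 in arterial cells, and without EHT cells holding mesenchymal transcripts -0.0123 for Lyl1.

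Between cell groups, thinning to 6000 UMIs reduced the genes called to 2966 for EHT against arterial, 240 for arterial against plexus, 1456 for EHT against myeloid and 2380 for EHT against macrophage cells. It gave -0.0844 for Lyl1 and -0.0964 for Gata2 in EHT against arterial cells. Nearest centroids gave -0.092 for Lmo2 in EHT against arterial cells, 0.26 for Fli1 and 4523 genes called in arterial against plexus cells, 0.0374 for Gata2 in EHT against myeloid cells and -0.0067 for Fli1 in EHT against macrophage cells. For arterial against plexus cells, the members called were 5 without the filter, 5 with the plexus gate first, 1 in control sums and 1 after thinning, and the genes called were 343 in control sums and 732 with doubled thresholds. Leaving out a library gave 744 to 976 genes called there. Erg was -0.0194 without the library as a block, -0.0453 within the stated cell limits, -0.0748 with the plexus gate first and -0.10 to 0.24 by the library left out. Runx1 in EHT against myeloid cells was -0.0871 in control sums and -0.0609 to 0.21 by the library left out.

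The percent of cells with all 7 genes, as a mean over libraries, was 5.69% at 12000 UMIs and 67.2% without thinning in EHT cells, and 1.60% and 6.37% in arterial cells. The mean number of genes was 4.64 and 6.53 in EHT, 3.71 and 4.55 in arterial and 2.49 and 4.12 in macrophage cells, and 2.65 in arterial cells by nearest centroid. The cKO minus control difference in that number at 12000 UMIs and without thinning was 0.26 and 0.0703 in EHT, -0.16 and -0.12 in arterial and 0.0769 and 0.32 in macrophage cells. Leaving out a library at 6000 UMIs gave -0.22 to 0.0588 in EHT cells and -0.15 to 0.0427 in macrophages. With at least 2 UMIs required per step, Runx1 in the first step was 13.2 CPM.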
